A study of Mus musculus with 6 samples.

Results

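Messenger RNA of 8 chemoattractant receptor genes was examined in 6 RNA-seq libraries of mouse alveolar macrophages, the phagocytes that live in the air spaces of the lung. The genes were Fpr1, Fpr2, Ltb4r1, Ptafr, Ccr1, Ccr2, Cx3cr1 and Cxcr4, 8 of 11789 genes listed in the deposited table, and all 8 passed the minimum mean level of 1 FPKM that left 10696 genes for testing. They were chosen by name, with the differences between the groups in these libraries already known, so their differences are given as a description without a test. All animals were C57BL/6 mice exposed to an agent abbreviated BLM. The 3 wild-type libraries are called BLM1, BLM2 and BLM3, and the 3 libraries labelled A20 conditional knockout are called A20-1, A20-3 and A20-4. A20 is the protein made by Tnfaip3, a brake on NF-kB signalling. The driver of the deletion, the deleted exons, the age of the mice, the dose, the day of collection and any pooling of animals are unstated in the labels. The spread between libraries may therefore be partly technical, and that spread is all the p-values measure. Values by library are always listed in the order A20-1, A20-3, A20-4 for knockout and BLM1, BLM2, BLM3 for wild type.

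These receptors span the membrane many times and signal through G proteins, chiefly of the Gi class, whose beta-gamma subunits activate phosphoinositide 3-kinase gamma and phospholipase C beta and so turn a chemical gradient into directed movement. Formyl peptide receptors sense peptides that begin with formylmethionine, released by bacteria and by damaged mitochondria. Leukotriene B4 and platelet-activating factor are lipids made by activated leukocytes, and chemokines are small secreted proteins that recruit leukocytes of particular types. Ccr2 brings monocytes out of the bone marrow and Cx3cr1 marks patrolling monocytes and some tissue macrophages, while neutrophils carry many of the other receptors.

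Every library carried defining genes of alveolar macrophages. Siglecf ranged from 11.1 to 43.5 FPKM and Chil3 from 2998 to 5471 FPKM, where FPKM is a fragment count corrected for transcript length and for the size of the library. Both overlapped between the groups. Other markers were set apart, Marco as lower in knockout and several, Krt79 and Cidec among them, as higher. Mean levels in knockout and wild type were 8.43 and 32.2 FPKM for Marco, 29.3 and 4.50 FPKM for Krt79, and 36.9 and 6.99 FPKM for Cidec. The summed level of 22 alveolar macrophage markers was 6600 to 9185 FPKM in knockout and 4532 to 8182 FPKM in wild type. Their part in the receptor levels was not tested. Tnfaip3 itself had 8.44, 12.9 and 6.80 FPKM in knockout against 4.47, 2.18 and 21.6 FPKM in wild type, and the log2 difference of 0.46 ± 0.69 (SE) had a limma adjusted p of 0.734. Without the outlying library BLM3 the difference was 1.27, toward higher values in knockout (adjusted p = 0.0797 by limma). It was thus not shown to be lower in the libraries labelled knockout, and every direction below is one between libraries as labelled. BLM3 stood apart, with Pearson correlations across genes of 0.913 and 0.925 to the other wild-type libraries, where BLM1 and BLM2 correlated at 0.982 and the knockout libraries at 0.977 to 0.980. Of 14 neutrophil markers 11 were listed, and 9 of these were highest in BLM3. Their summed level was 2933 FPKM there, 154 and 166 FPKM in BLM1 and BLM2, and 118 to 161 FPKM in the knockout libraries. S100a9, a calcium-binding protein of neutrophils, reached 1535 FPKM in BLM3 and at most 24.8 FPKM elsewhere. The neutrophil surface gene Ly6g had 2.25 FPKM in BLM3 and 0.0752 FPKM in A20-1 and was listed at 0 in the other libraries. For most named genes, values without BLM3 are given beside the differences it moved by over 1.5 times or across the threshold. No such values are given for Lpcat1, Pla2g4a, the Pafah genes, Pik3cg, Plcb2, C5ar1 and C5ar2. The differences of those genes may also depend on BLM3. In bulk RNA, fewer cells of a type and less RNA per cell cannot be told apart.

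The formyl peptide receptors were higher in all 3 knockout libraries than in any wild-type library. Fpr1 (ENSMUSG00000045551.7, GRCm38 chromosome 17, 17876471 to 17883940, minus strand), the high-affinity receptor for bacterial formyl peptides, had 145.9, 152.6 and 148.9 FPKM in knockout against 59.3, 79.8 and 45.1 FPKM in wild type. The knockout values lay within 1.05-fold of each other, the groups did not overlap, and BLM3 was the lowest library. The means were 149.1 ± 3.37 FPKM in knockout and 61.4 ± 17.5 FPKM in wild type (SD, n = 3 each), which is 2.43-fold higher, with a difference of 1.30 ± 0.20 (SE) on the log2(FPKM + 1) scale.

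Fpr2 (ENSMUSG00000052270.7, GRCm38 chromosome 17, 17887824 to 17893952, plus strand) binds a wider range of ligands, among them annexin A1 and serum amyloid A. Its level was 92.4, 102.3 and 89.8 FPKM in knockout against 21.5, 37.7 and 66.6 FPKM in wild type. The groups did not overlap here either, but BLM3 was the highest wild-type library for Fpr2 and the lowest for Fpr1. The mean was 94.8 ± 6.61 FPKM in knockout and 41.9 ± 22.8 FPKM in wild type (SD, n = 3 each), and the log2 difference was 1.30 ± 0.37 (SE), or 1.70 ± 0.22 without BLM3. The ratio of Fpr1 to Fpr2 within a library was 1.58, 1.49 and 1.66 in the knockout libraries, against 2.75 in BLM1, 2.12 in BLM2 and 0.677 in BLM3. The knockout ratios lay inside the wild-type range. Fpr2 is the receptor whose reads are least certain: 31.5% of the distinct 50-base windows of its coding transcripts also occur in transcripts of other genes, most of them in Gm5966, against 0.0784% for Fpr1. Its gene body also overlaps Fpr3. The assignment of such reads is unstated in the labels.

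The pair lies head to head, with 3.88 kb between their annotated starts, and both promoters are poor in CG dinucleotides. Over the 300-base RefSeq windows around the start, Fpr1 and Fpr2 each hold 1 CG, as do Ccr1 and Ccr2, where the median over 32851 windows is 7. Cxcr4 stands at the other end among the 8, with 20 CG, more than 73.5% of all windows. Ltb4r1 has 3 CG, Cx3cr1 5 and Ptafr 6. The 250 bases upstream of the RefSeq start of Fpr1, Fpr2 and Cxcr4 (sequence from RefSeq, GRCm38.p6, 5′ to 3′ on the strand of the gene) are shown to set this contrast beside the levels, with CG in capitals. The printed stretches hold 1, 0 and 19 CG.
Fpr1, chr17:17883940-17884189, minus strand: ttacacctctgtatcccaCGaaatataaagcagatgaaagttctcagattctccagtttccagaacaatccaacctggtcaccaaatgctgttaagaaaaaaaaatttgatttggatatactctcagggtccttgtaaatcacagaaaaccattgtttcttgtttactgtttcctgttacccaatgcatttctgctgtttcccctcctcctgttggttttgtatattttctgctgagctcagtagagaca
Fpr2, chr17:17887574-17887823, plus strand: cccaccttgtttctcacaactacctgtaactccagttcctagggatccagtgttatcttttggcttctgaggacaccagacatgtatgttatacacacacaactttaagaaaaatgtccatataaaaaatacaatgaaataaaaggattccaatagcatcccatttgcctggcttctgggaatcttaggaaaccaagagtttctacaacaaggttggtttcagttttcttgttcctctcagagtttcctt
Cxcr4, chr1:128592300-128592549, minus strand: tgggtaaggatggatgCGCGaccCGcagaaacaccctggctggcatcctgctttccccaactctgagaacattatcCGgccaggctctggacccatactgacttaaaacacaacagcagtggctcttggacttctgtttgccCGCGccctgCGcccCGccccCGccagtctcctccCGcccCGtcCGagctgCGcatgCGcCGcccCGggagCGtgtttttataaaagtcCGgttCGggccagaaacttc

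The receptors for lipid mediators showed the opposite order, with all 3 knockout libraries below all 3 wild-type libraries. Ltb4r1 (ENSMUSG00000046908.5, GRCm38 chromosome 14, 55765962 to 55768494, plus strand), the high-affinity receptor for leukotriene B4, had 1.27, 0.884 and 0.844 FPKM in knockout against 4.04, 2.63 and 10.3 FPKM in wild type. It was the receptor with the lowest level in every knockout library. The means were 0.998 ± 0.233 and 5.65 ± 4.07 FPKM (SD, n = 3 each), and the log2 difference was -1.57 ± 0.40 (SE), or -1.10 ± 0.18 without BLM3.

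Ptafr (ENSMUSG00000056529.7, GRCm38 chromosome 4, 132564067 to 132582683, plus strand), the receptor for platelet-activating factor, had 13.9, 13.7 and 12.3 FPKM in knockout against 18.6, 19.3 and 104.6 FPKM in wild type. BLM3 held 5.52-fold the mean of BLM1 and BLM2, the widest such gap among the 8 receptors. The log2 difference was -1.28 ± 0.63 (SE) with all libraries and -0.48 ± 0.10 without BLM3, so the size of this difference rested on that library. The neutrophil markers given above were high in the same library, and their part in the levels of Ptafr and Ltb4r1 was not tested. The ratio of Fpr1 to Ptafr was 10.5, 11.1 and 12.1 in knockout against 3.19, 4.13 and 0.431 in wild type. Its groups had to separate, because Fpr1 was higher and Ptafr lower in every knockout library.

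Of 3 motifs searched on both strands of the 300-base windows, Ltb4r1 alone among the 8 receptors held any. The PU.1 core GAGGAAG, which belongs to a macrophage and granulocyte lineage factor, occurred at 130 bases before the start and again at position 2 of the transcript, both on the minus strand relative to the gene. It is present in 13.6% of all windows, and 1.31% hold 2 or more matches. The kappaB motif (1.63% of all windows) and the hypoxia element ACGTG (19.6%) matched in none of the 8. A match is a description of letters only. The 250 upstream bases of Ltb4r1 (RefSeq, GRCm38.p6) are shown with the match, in its reverse-complement form, in capitals.
Ltb4r1, chr14:55765712-55765961, plus strand: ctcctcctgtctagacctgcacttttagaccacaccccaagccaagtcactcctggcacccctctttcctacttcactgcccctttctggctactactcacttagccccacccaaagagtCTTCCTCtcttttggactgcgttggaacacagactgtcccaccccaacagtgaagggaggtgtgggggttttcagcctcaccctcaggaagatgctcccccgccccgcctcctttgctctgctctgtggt

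**Figure D1:**
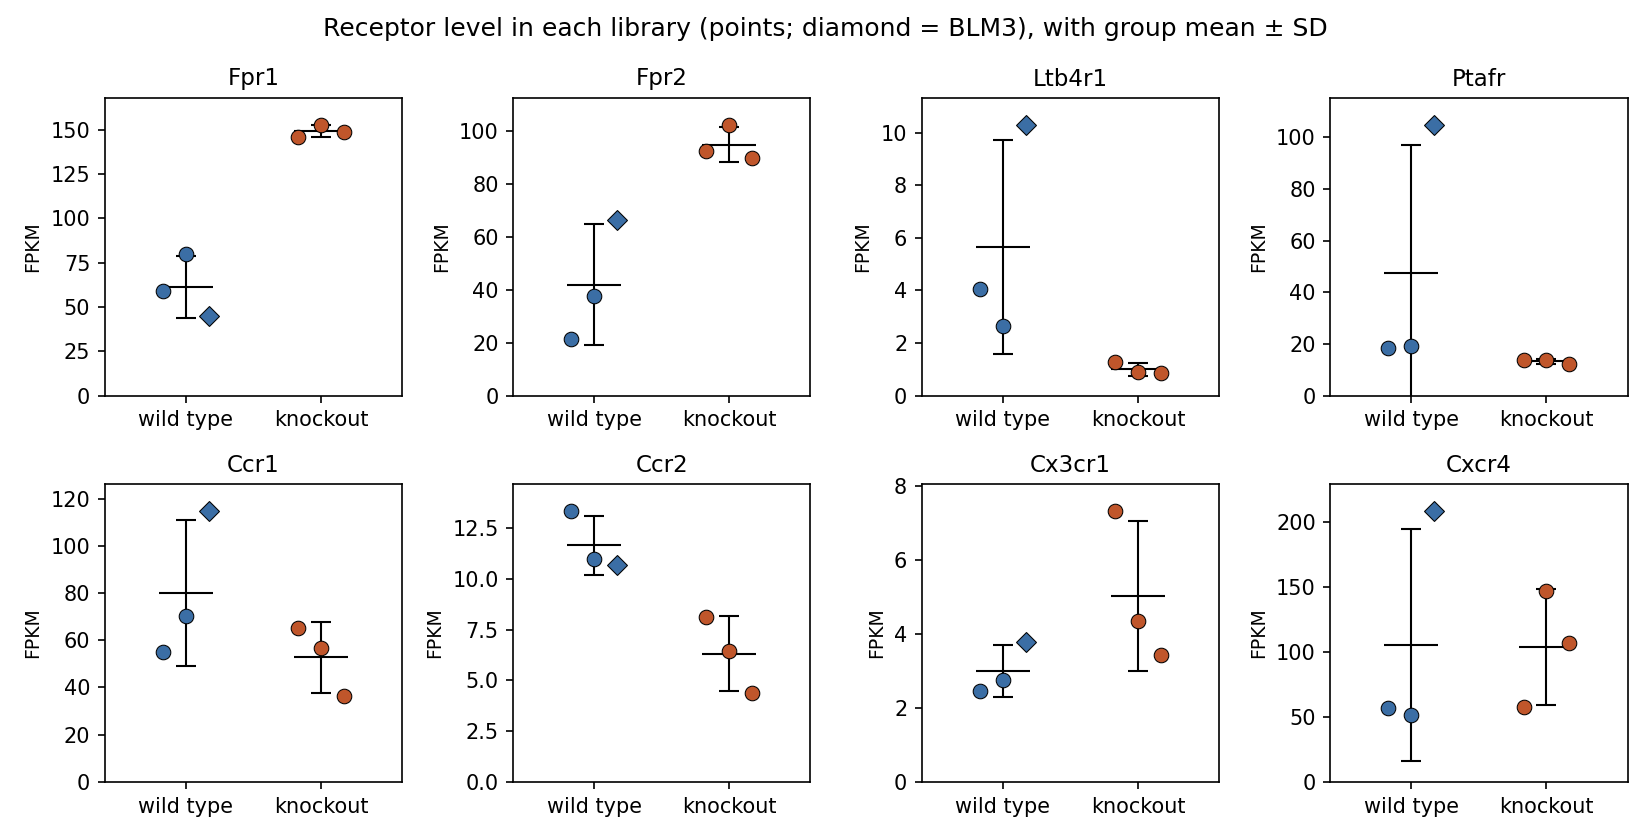
Level of each receptor (FPKM, vertical axis from 0) in the 3 wild-type (blue) and 3 knockout (orange) libraries, with BLM3 as a diamond, and the group mean ± SD in black (the lower bar of Ptafr in wild type runs below 0 and ends at the axis). The knockout points of Fpr1 lie between 145.9 and 152.6 FPKM, above the highest wild-type point of 79.8, and BLM3 is the highest point for Ltb4r1, Ptafr, Ccr1 and Cxcr4.

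Ccr2 was lower in all 3 knockout libraries and Ccr1 was not separated between the groups. Ccr2 (ENSMUSG00000049103.14, GRCm38 chromosome 9, 124101950 to 124113557, plus strand), the receptor for Ccl2, Ccl7 and Ccl12 on inflammatory monocytes, had 8.13, 6.43 and 4.41 FPKM in knockout against 13.3, 10.99 and 10.7 FPKM in wild type. It was the receptor that varied least among the wild-type libraries, within 1.25-fold, and BLM3 was its lowest wild-type value. The means were 6.32 ± 1.86 and 11.7 ± 1.45 FPKM (SD, n = 3 each), and the log2 difference was -0.82 ± 0.20 (SE), or -0.87 ± 0.23 without BLM3. Of its 50-base windows 1.91% occur in other genes. A list of 20 monocyte and recruited macrophage marker symbols gave 19 listed entries, with Itgam entered under separate gene IDs. The summed level of these entries was 1170 to 1487 FPKM in the knockout libraries and 2532 to 2910 FPKM in wild type. Their part in the Ccr2 level was not tested.

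Ccr1 (ENSMUSG00000025804.5, GRCm38 chromosome 9, 123962124 to 123968692, minus strand), a receptor for Ccl3, Ccl5, Ccl6 and Ccl9, had 65.3, 56.6 and 36.2 FPKM in knockout against 54.9, 70.3 and 114.6 FPKM in wild type. The groups overlapped. The log2 difference of -0.57 ± 0.32 (SE) was -0.27 ± 0.25 without BLM3 and -0.32 ± 0.32 without A20-4.

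Cx3cr1, the receptor for fractalkine (ENSMUSG00000052336.7, GRCm38 chromosome 9, 119901616 to 120069879, minus strand), had 7.32, 4.35 and 3.43 FPKM in knockout against 2.45, 2.75 and 3.79 FPKM in wild type. The knockout mean of 5.03 ± 2.03 FPKM was above the wild-type mean of 2.995 ± 0.702 FPKM (SD, n = 3 each), with overlapping values. Its log2 difference of 0.56 ± 0.25 (SE) dropped to 0.30 ± 0.19 without A20-1. The annotated gene spans 168.26 kb and overlaps the listed genes Wdr48, Gorasp1 and Csrnp1, which leaves its value uncertain if reads were shared. The ratio of Ccr2 to Cx3cr1 was 1.11, 1.48 and 1.29 in knockout against 5.45, 3.99 and 2.82 in wild type. This ratio takes in the separation of Ccr2 itself, so it is not a separate difference of Cx3cr1.

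Cxcr4 (ENSMUSG00000045382.6, GRCm38 chromosome 1, 128588199 to 128592293, minus strand), the receptor for Cxcl12 that retains leukocytes in the bone marrow, followed single libraries and not the groups. It had 57.6, 146.8 and 106.9 FPKM in knockout against 56.6, 51.4 and 208.3 FPKM in wild type. The means were 103.8 ± 44.7 and 105.4 ± 89.2 FPKM (SD, n = 3 each). The log2 difference was 0.19 ± 0.59 (SE) with all libraries, 0.83 ± 0.36 without BLM3, and negative without A20-3 (-0.11), BLM1 (-0.10) or BLM2 (-0.17). The libraries highest in Cxcr4, BLM3 and A20-3, were also the highest in the summed level of 5 listed erythroid markers, at 2484 and 3551 FPKM against 188 to 968 FPKM in the other libraries. Summed T and NK cell markers reached 377 FPKM in BLM3 and 190 to 286 FPKM elsewhere. Summed neutrophil markers reached 2933 FPKM in BLM3 and 118 to 166 FPKM elsewhere. The part of any of these cell types in the Cxcr4 level was not tested.

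**Figure D2:**
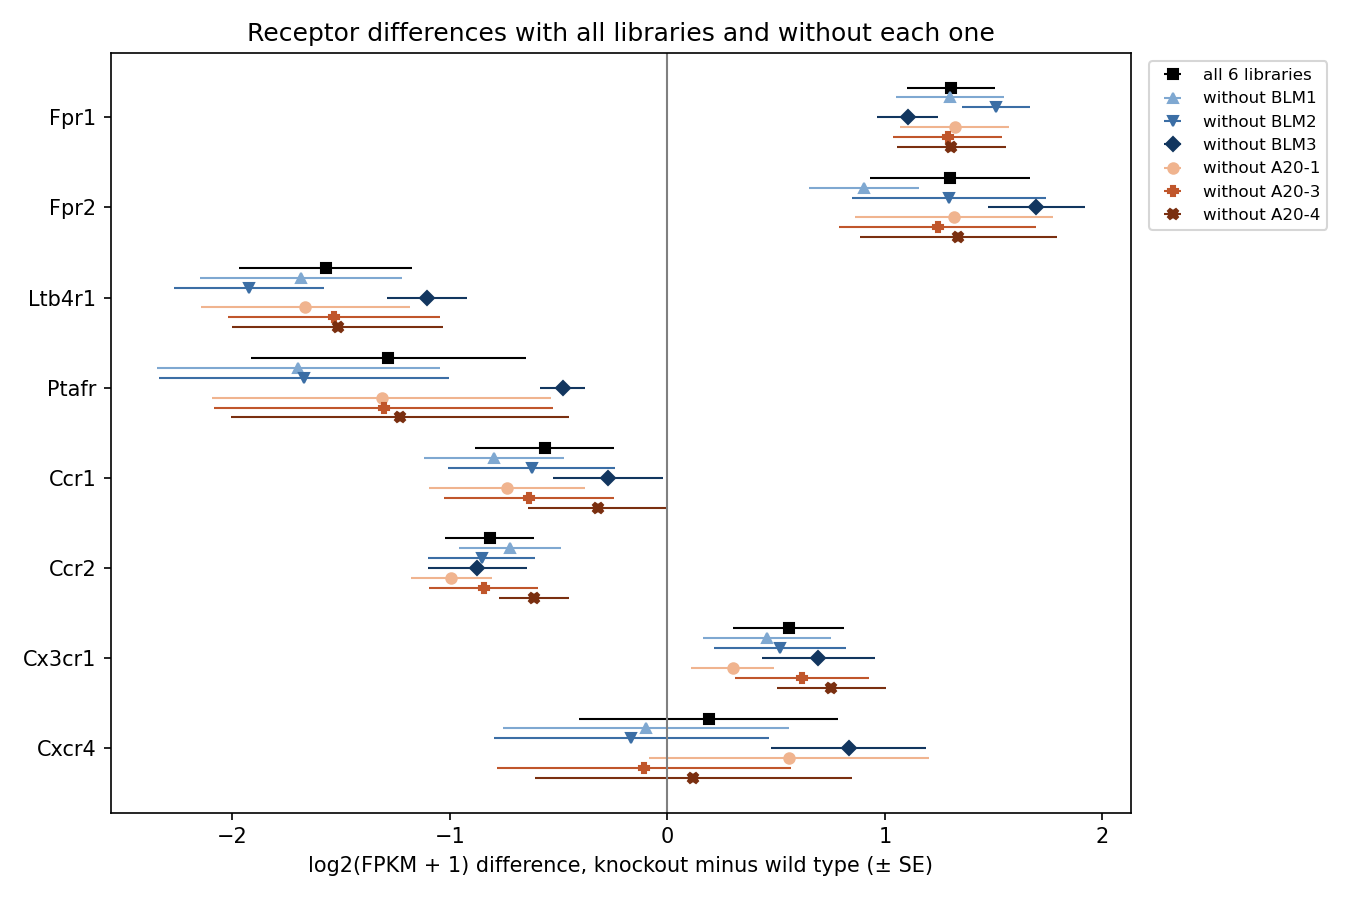
Difference between knockout and wild type for each receptor on the log2(FPKM + 1) scale (horizontal axis, points ± SE from limma), with all 6 libraries (black squares) and without each library in turn. Every receptor except Cxcr4 keeps its side of 0 in each fit, Ptafr moves from -1.28 to -0.48 without BLM3, and Cxcr4 lies on either side of 0.

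The values of 5 of the 8 receptors did not overlap between the groups: Fpr1 and Fpr2 were higher in knockout, which held for 15.9% of all genes tested, and Ltb4r1, Ptafr and Ccr2 were lower, which held for 13.1%. In the fit over all genes (limma, adjusted p under 0.05), Fpr1 was the 1 member called, as higher, against a background of 0.252% called higher and 0.851% called lower. That call ended without A20-1, A20-3, A20-4 or BLM1. Without BLM3 the calls were Fpr1 and Fpr2 as higher (background 1.35%) and Ltb4r1 as lower (background 2.5%). Nothing is read from these counts, because the same contrast was known when the genes were chosen. The median difference of the 8 was -0.19, against 0.02 over all genes tested, and it was 0.21 without BLM3.

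The order of levels also differed between libraries. Fpr1 was the highest of the 8 in all 3 knockout libraries and in BLM1 and BLM2, whereas Cxcr4, Ccr1, Ptafr and Fpr2 all exceeded it in BLM3. By knockout means the order was Fpr1, Cxcr4, Fpr2, Ccr1, Ptafr, Ccr2, Cx3cr1 and Ltb4r1, in which the ranges of Fpr1 and Cxcr4, of Cxcr4 and Fpr2, and of Ccr2 and Cx3cr1 overlapped. By wild-type means it was Cxcr4, Ccr1, Fpr1, Ptafr, Fpr2, Ccr2, Ltb4r1 and Cx3cr1. There the ranges of each of the 5 highest overlapped with the next below it among them, as did those of Ltb4r1 and Cx3cr1. Together the 8 receptors held 0.147% to 0.174% of all listed FPKM in the knockout libraries, 0.0822% and 0.0933% in BLM1 and BLM2, and 0.198% in BLM3.

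Among the genes that encode or make the ligands, 2 fell and 0 rose of 28 tested (limma, adjusted p under 0.05), where 0.851% of all genes tested were called lower and 0.252% higher. An unadjusted p under 0.05 was found for 9 of the 28 (32.1%) and for 20.3% of all genes. The median difference was -0.15, against 0.02 over all genes tested. Ccl9, a ligand of Ccr1, fell from 97.5 ± 12.05 to 24.5 ± 3.57 FPKM (SD, n = 3 each), with a difference on the log2 scale of -1.95 ± 0.15 (SE, limma adjusted p = 0.00889). Its values were 20.8, 24.8 and 27.9 FPKM in knockout against 86.8, 95.2 and 110.6 FPKM in wild type. The call of Ccl9 ended without A20-3 (adjusted p = 0.0731) or BLM1 (0.0552). Lpcat2, the acyltransferase that makes platelet-activating factor in inflammatory cells, fell from 25.0 ± 2.83 to 11.3 ± 1.97 FPKM (SD, n = 3 each), with a difference of -1.09 ± 0.15 on the log2 scale (SE, limma adjusted p = 0.0344). It had 13.5, 9.67 and 10.7 FPKM in knockout against 23.4, 23.3 and 28.2 FPKM in wild type. Leaving out any 1 of the 5 libraries other than BLM3 ended this call (limma adjusted p from 0.0557 to 0.159).

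The enzyme that breaks down platelet-activating factor, Pla2g7, had 13.02, 11.8 and 18.7 FPKM in knockout against 46.1, 43.2 and 145.4 FPKM in wild type. Its log2 difference of -2.14 ± 0.47 (SE) was not past the threshold with all libraries (limma adjusted p = 0.0889), and -1.58 without BLM3 was (0.0172). The other genes of the list that make or remove this lipid, Lpcat1, Pla2g4a, Pafah1b1, Pafah1b2, Pafah1b3 and Pafah2, all overlapped between the groups, with differences from -0.49 (Lpcat1) to 0.27 (Pafah1b1). For Lpcat1 the overlap came through BLM3: it had 7.73, 2.91 and 8.51 FPKM in knockout against 17.0, 11.2 and 3.07 FPKM in wild type. BLM3 was also the lowest library for Pafah1b1. Of the 28 ligand genes, 10 had all knockout values below all wild-type values, as did 13.1% of all genes tested. The genes for leukotriene B4 synthesis overlapped between the groups. Alox5, the 5-lipoxygenase, had a difference of 0.78 ± 0.39 on the log2 scale (SE, limma adjusted p = 0.312, and 0.33 without BLM3), its activating protein gene Alox5ap 0.31 ± 0.20 (0.411) and the hydrolase Lta4h 0.28 ± 0.18 (0.410, and 0.09 without BLM3).

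The Ccr2 ligands Ccl2, Ccl7 and Ccl12 had every knockout value below every wild-type value, and none was called. Ccl2 was at 1.35, 1.93 and 0.67 FPKM in knockout against 3.99, 9.63 and 56.3 FPKM in wild type (log2 difference -2.68 ± 0.84, SE, limma adjusted p = 0.155, and -1.69 without BLM3). Ccl7 had -2.44 ± 0.82 (adjusted p = 0.176, and -1.55 without BLM3) and Ccl12 -2.05 ± 0.51 (adjusted p = 0.109). BLM3 held the highest value of each. Other Ccr1 ligands differed in pattern: Ccl3 had 11.5 to 14.6 FPKM in knockout, 19.8 and 25.9 FPKM in BLM1 and BLM2, and 307.6 FPKM in BLM3 (log2 difference -1.96, and -0.73 without BLM3), while Ccl6, at 972.6 to 1831 FPKM the highest chemokine of the list in every library, had means of 1374 ± 432 FPKM in wild type and 1405 ± 84.2 FPKM in knockout (SD, n = 3 each), and a difference of -0.15 without BLM3. Ccl5 had 79.3 ± 10.7 and 85.9 ± 7.23 FPKM (SD, n = 3 each; limma adjusted p = 0.640). Ccl8, which also binds these receptors, had 8.61 ± 8.72 and 1.53 ± 0.306 FPKM (adjusted p = 0.226, with a log2 difference of -1.52, and -0.81 without BLM3), and Ccl4 52.6 ± 80.7 and 7.15 ± 1.38 FPKM (adjusted p = 0.565), with a difference of the other sign without BLM3 (0.21) and with array weights (0.055).

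The fractalkine gene Cx3cl1, whose product is the ligand of Cx3cr1, had 7.39, 6.89 and 5.94 FPKM in knockout against 5.51, 4.73 and 1.42 FPKM in wild type. The groups did not overlap and the gene was not called (log2 difference 0.78 ± 0.37, SE, limma adjusted p = 0.287), and the difference was 0.34 without BLM3. The summed level of 11 lung epithelium markers was 328 to 416 FPKM in knockout and 104 to 236 FPKM in wild type, lowest in BLM3. Scgb1a1 had the highest mean of these, 206.6 FPKM in knockout and 67.0 FPKM in wild type. The markers went both ways: Scgb1a1, Epcam and Cdh1 were higher in knockout without overlap. Krt8 (means of 4.68 against 11.4 FPKM) and Krt18 (4.87 against 15.9 FPKM) were lower without overlap, and the rest overlapped. The part of such cells in the Cx3cl1 level was not tested. The Fpr2 ligand genes were unlike each other. Anxa1 was abundant in all libraries, at 143.6 to 220.2 FPKM, with a difference of -0.23 ± 0.18 on the log2 scale (SE, limma adjusted p = 0.502), and of -0.43 without BLM3. Saa3 was at 181.2 FPKM in BLM3, 1.31 and 1.66 FPKM in BLM1 and BLM2 and 0.265 to 0.518 FPKM in knockout, and was not called with all libraries (adjusted p = 0.351). Without BLM3 it fell by 0.85 on the log2 scale (adjusted p = 0.0322). Mif, which can bind Cxcr4, had 92.5 ± 44.2 FPKM in wild type and 50.01 ± 7.20 FPKM in knockout (SD, n = 3 each; limma adjusted p = 0.224), a log2 difference of -0.79 that was -0.42 without BLM3.

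**Figure D3:**
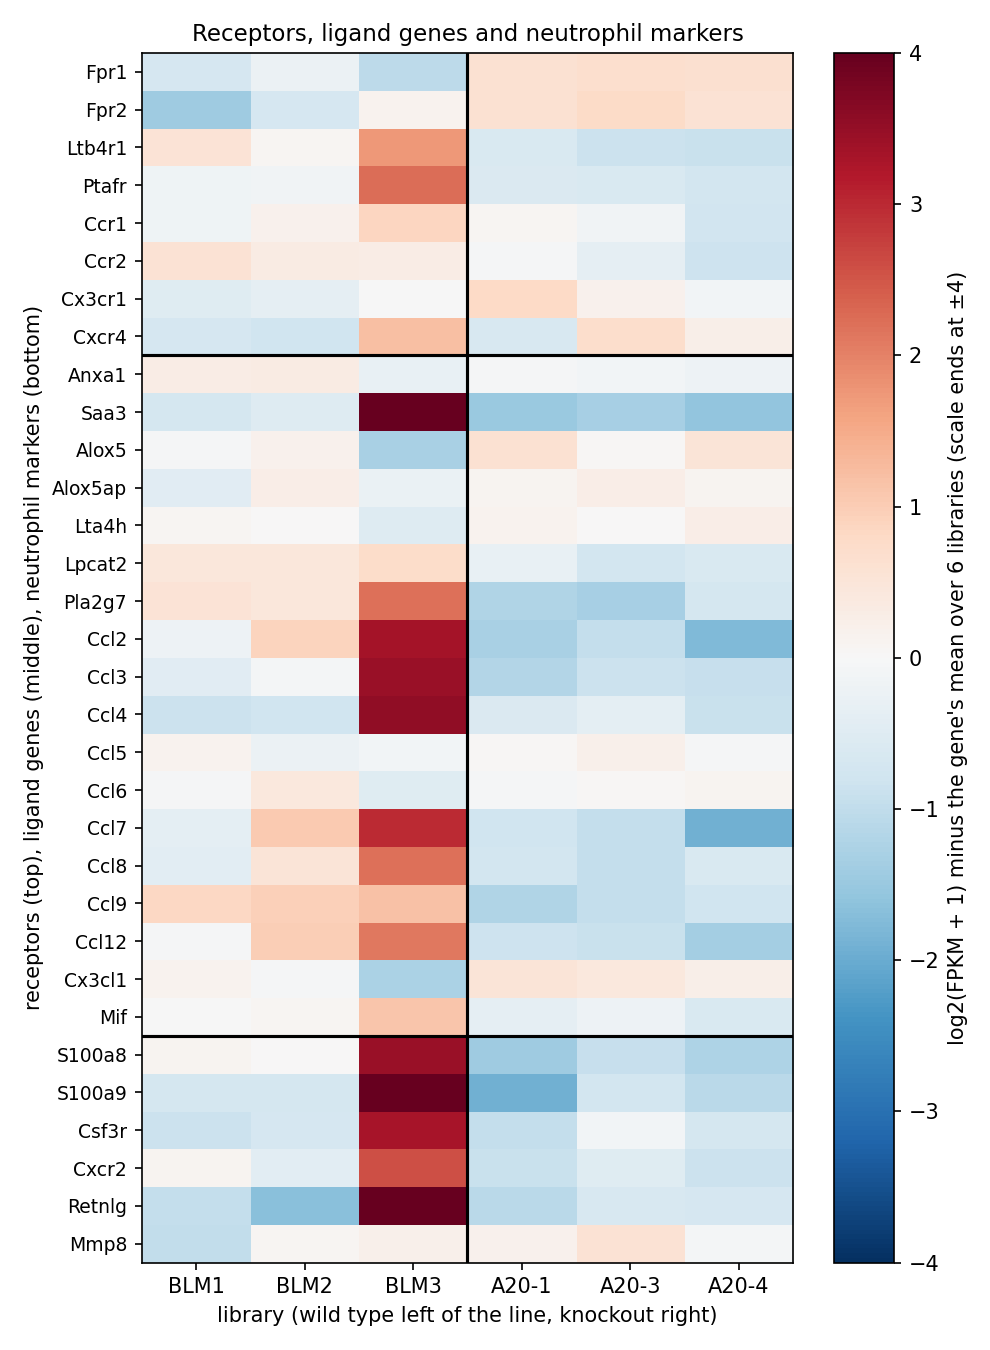
Colour map of log2(FPKM + 1) minus the mean of the gene over the 6 libraries (colour scale ends at ±4), with libraries in columns, wild type left of the vertical line, and receptors, ligand genes and neutrophil markers in rows from top to bottom. Ptafr, Ltb4r1 and Cxcr4 share the high BLM3 column with Ccl2, Ccl3, Saa3 and S100a9, while Fpr1, Alox5 and Cx3cl1 are lowest in BLM3.

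Of 43 tested genes that carry the signal from these receptors, 0 were called by limma in either direction (10 at an unadjusted p under 0.05, which is 23.3% against 20.3% of all genes tested), with a median difference of 0.06. Without BLM3, 2 were called, Pik3r6 as higher and Rgs10 as lower. Pik3r6, the p84 regulatory subunit of phosphoinositide 3-kinase gamma, had 19.9, 19.2 and 19.4 FPKM in knockout against 13.3, 13.03 and 11.02 FPKM in wild type (log2 difference 0.61 ± 0.11, SE, limma adjusted p = 0.0592, and 0.0371 without BLM3). Pik3r5, the p101 subunit of the same kinase, had 0.55 ± 0.16 (adjusted p = 0.135), the phospholipase gene Plcb3 0.52 ± 0.11 (0.0851) and Prex1, a Rac exchange factor that responds to beta-gamma subunits, 0.45 ± 0.14 (0.162). These 4 are among the genes of the list with the smallest p. They belong to the 10 of 43 whose knockout values all lay above the wild-type values, as held for 15.9% of all genes tested. Pik3cg, the catalytic subunit, and Plcb2 overlapped between the groups, with differences of 0.24 ± 0.18 and 0.39 ± 0.17 (SE). BLM3 was the lowest library for both. Rgs10, which speeds the turn-off of G protein alpha subunits, lay below, with 37.7 ± 3.06 FPKM in wild type and 23.7 ± 2.09 FPKM in knockout (SD, n = 3 each), which is -0.64 on the log2 scale, ± 0.11 (SE, limma adjusted p = 0.0596, and 0.0472 without BLM3). The main Gi alpha gene, Gnai2, ranged from 151.4 to 188.0 FPKM over all libraries.

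Other chemoattractant receptors numbered 29 tested, of which 1 fell and 0 rose (limma, adjusted p under 0.05; 10 at an unadjusted p under 0.05, or 34.5% against 20.3% of all genes tested). The median difference was -0.43 against 0.02 over all genes, and 21 of the 29 (72.4%) were negative, as were 47.1% of all genes. Some of the negative genes followed single wild-type libraries. Ccrl2 had 92.7 FPKM in BLM3 and 4.34 to 6.06 FPKM elsewhere. Ccr6, Cxcr5 and S1pr1 were higher in BLM1 and BLM3 than in BLM2. So was the summed level of 6 B cell markers (118, 37.5 and 95.1 FPKM in BLM1, BLM2 and BLM3). The part of such cells in these levels was not tested. The gene that fell was C3ar1, the receptor for complement fragment C3a, with 12.7, 7.95 and 5.24 FPKM in knockout against 35.3, 33.7 and 51.0 FPKM in wild type (log2 difference -2.14 ± 0.31, SE, limma adjusted p = 0.0373). This call ended without A20-3 (adjusted p = 0.160), A20-4 (0.122), BLM1 (0.123) or BLM2 (0.0622). Cmklr1, the chemerin receptor, had 12.2 ± 3.26 FPKM in wild type and 4.83 ± 1.31 FPKM in knockout (SD, n = 3 each; limma adjusted p = 0.0709, and 0.0462 without BLM3). Lpar6, a lysophosphatidic acid receptor, had a difference of -0.98 ± 0.22 on the log2 scale (SE, limma adjusted p = 0.0957), Ccr4 -0.76 ± 0.21 (0.131) and Ccr7, which guides cells to lymph nodes, -0.68 ± 0.23 (0.175).

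Ccr1 and Ccr2 lie in a chemokine receptor cluster on chromosome 9, and Cx3cr1 lies on the same chromosome. The genes described here lie within 200 kb of these receptors and were not called with all libraries. Xcr1, 100.09 kb from Ccr1 and a receptor of cross-presenting dendritic cells, had a log2 difference of -0.97 ± 0.35 (SE; adjusted p by limma 0.193), and passed the threshold without BLM3 (-1.36, adjusted p = 0.0236). Cxcr6, 150.36 kb from Ccr1, had -0.28 ± 0.30 (adjusted p = 0.624), and -0.0016 without BLM3. Ccr8, 22.23 kb from Cx3cr1, had 0.13 ± 0.28 (adjusted p = 0.823) and -0.16 without A20-1, and 0.24 without BLM3.

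**Figure D4:**
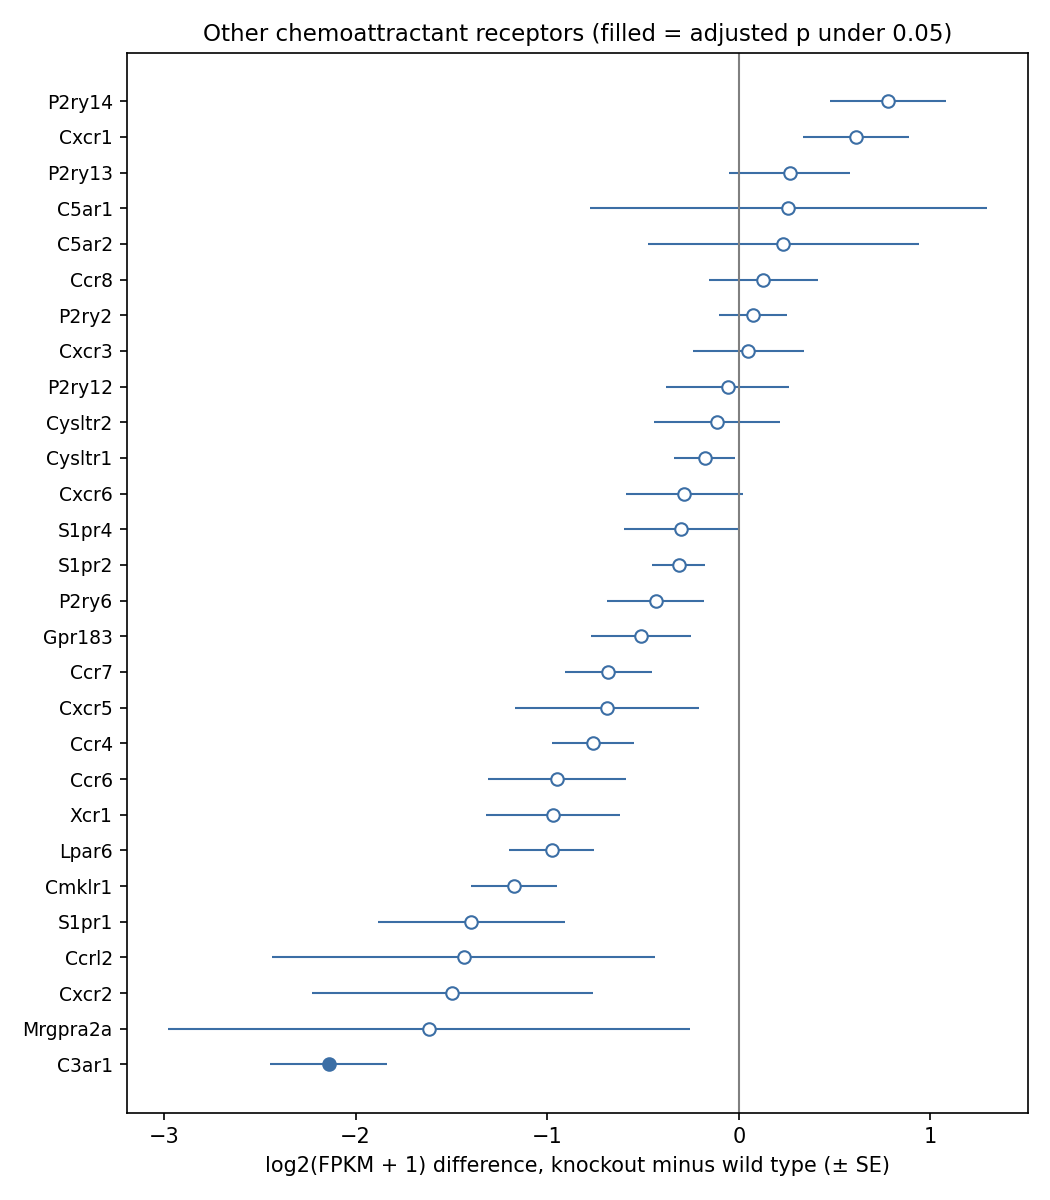
Difference between knockout and wild type on the log2(FPKM + 1) scale (horizontal axis, points ± SE from limma) for chemoattractant receptors outside the group of 8, in order of the difference. C3ar1, at the foot with -2.14, is the filled point, past an adjusted p of 0.05, and most of the points lie left of 0.

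The genes whose level followed each receptor most closely over the 6 libraries were found by Pearson correlation of log2(FPKM + 1) among all genes tested. These correlations are descriptions of 6 points that share 2 groups and the outlying BLM3, and the number of genes with r above 0.95 ran from 10 for Cx3cr1 to 258 for Ptafr. For Fpr1 the nearest were Eri1 (r = 0.9998), a 3′ exonuclease, Irs2 (0.995), an adaptor of the insulin receptor, and Qsox1 (0.995), a sulfhydryl oxidase. Fpr2 was followed by Pola2 (0.9896), Ppm1g (0.982) and Themis2 (0.982). Ltb4r1 was nearest to AB124611 (0.998), Cpne2 (0.996) and Gnl2 (0.996).
For Ptafr the nearest were the platelet chemokine Ppbp (0.998), Saa3 (0.997) and the cytokine Il17a (0.997). Ppbp was listed at 0 in all 3 knockout libraries and had 0.350, 0.516 and 7.47 FPKM in wild type. Ccr1 was nearest to Ugt1a1 (0.987), Ddx24 (0.986) and 5430427O19Rik (0.980), Ccr2 to Tceal8 (0.994), Otub1 (0.994), a deubiquitinase, and Acbd4 (0.991). Cx3cr1 was nearest to Zfp143 (0.986) and Zfp456 (0.972), and Cxcr4 to Vamp2 (0.997), Tut1 (0.994) and Rack1 (0.991). Among the 8 receptors themselves, r was -0.97 for Fpr1 with Ltb4r1, 0.92 for Ltb4r1 with Ptafr and 0.67 for Fpr1 with Fpr2.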

How the data were processed

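RNA-seq of 6 libraries was analysed from the deposited table of FPKM per gene, computed by the authors, per the file headers. Per the submitters' processing notes GRCm38 was used; aligner, quantifier, annotation release and use of strand: not given in the sources used here. Without counts, depth is unknown and the counting error of a single value cannot be given. Columns were assigned to groups by name, since their numbers differ from those in the titles. No pair of libraries was identical.

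Genes with a mean of at least 1 FPKM (10696 of 11789, 1093 left out) were compared on log2(FPKM + 1), a pseudocount of 1, with limma 3.58.1 in R 4.3.3 (lmFit and eBayes with a trend, two-sided). P-values were adjusted by Benjamini-Hochberg over all genes tested, with a threshold of 0.05. The scale understates differences of genes with low FPKM. The fit was checked on simulated data. The 8 receptors and all lists were chosen with earlier results of these data known. Named genes are the receptors, Tnfaip3, list genes called or with the 5 smallest p, genes of ligands, listed receptors within 200 kb and the 3 genes nearest to each receptor. Some genes that this rule names are not reported here. Gnai2 and marker genes were named after their values were seen.

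Of the gene IDs, 11771 were found in GENCODE M21 (10750 with the same coordinates, the 8 receptors among them). Promoter sequences are from RefSeq GRCm38.p6, matched by symbol for all 8, and CG was counted after the sequences were seen. Receptor protein sequences were not analysed here. Alternatives were other pseudocounts and minimum levels, TPM, quantile normalization, array weights and leaving out each library.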

Additional observations from a re-analysis of the deposited data

How the results depend on the processing

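Under the 13 alternatives each receptor difference moved by less than the larger SD within a group, except that the sign of Cxcr4 turned without A20-3 (-0.11), BLM1 (-0.10) or BLM2 (-0.17). The median of the 8 receptors, -0.19, was 0.23 with array weights and 0.21 without BLM3, with -0.41 to 0.21 on leaving out a library. Other named genes that turned were Tnfaip3 without BLM2 (-0.14), Ccl4 with array weights (0.055) and without BLM3 (0.21), Ccl5 with array weights (-0.053), Ccl6 without BLM3 (-0.15) and Ccr8 without A20-1 (-0.16). On leaving out a library these ran from -0.17 to 0.83 (Cxcr4), -0.14 to 1.27 (Tnfaip3), -2.00 to 0.21 (Ccl4), -0.15 to 0.31 (Ccl6) and -0.16 to 0.37 (Ccr8). Genes called lower were 91, and 58 with a minimum of 5 FPKM, 992 with array weights and 0 to 267 on leaving out a library. Genes called higher were 27, and 17, 942 and 0 to 144 in the same settings, and 41 with TPM (39.0% of calls, against 22.9% as deposited, with 64 lower). Array weights raised the calls to 4 of the 8 receptors (Fpr1 and Fpr2 higher, Ltb4r1 and Ccr2 lower), against 1, and to 5 of the ligand genes, 9 of the signalling genes and 9 of the other receptors, which were 2, 0 and 1. On leaving out a library these ran from 0 to 4, 0 to 2 and 0 to 3, with 0 ligand genes without A20-3 or BLM1. The cause of these moves was not tested, and a fit without a library has fewer values. No paired analysis was possible because the table's columns do not carry the replicate numbers of the titles. Ltb4r1 and Cx3cr1 gave no value with a minimum of 5 FPKM. Depth is unknown, so the counting error of low levels, such as Ltb4r1 in knockout, could not be estimated.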

Other observations

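The complement receptors for C5a, chosen here after their values were seen, varied between single libraries across both groups. C5ar1, which drives phagocytes toward complement fragment C5a, had 63.5, 62.4 and 7.28 FPKM in knockout against 45.8, 52.6 and 6.91 FPKM in wild type. The low values came from 1 library of each group, A20-4 and BLM3. C5ar2, the second receptor for this fragment, had 4.04, 0.133 and 3.19 FPKM in knockout against 3.84, 0.169 and 1.61 FPKM in wild type, and so was low in A20-3 and BLM2 instead. The log2 differences between the groups were 0.26 ± 1.04 (SE, limma adjusted p = 0.906) for C5ar1 and 0.23 ± 0.71 (adjusted p = 0.873) for C5ar2.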
